A study of Mus musculus with 8 samples.

Results

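The kynurenine pathway of tryptophan was followed through 10 genes: the tryptophan dioxygenase genes Ido1, Ido2 and Tdo2, and Afmid, Kmo, Kynu, Haao, Qprt, Kyat1 and Kyat3. They were taken by name from the platform annotation. All 10 were measured, each by 1 probe set, among 22206 probe sets, of which 19572 carried a gene symbol. Kyat1 drew attention to the pathway because its group difference in these arrays had one of the smallest p-values (rank 35 of 22206), so its difference is described here without a test. The other members were chosen for their place in the pathway, with earlier results of these data known. Lower interferon-induced genes were among those results, and Ido1 is interferon-induced.

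The material was ileum of male KKAy mice, an obese and diabetic strain that carries the yellow agouti allele. Mice aged 14 weeks were fed a high-fat diet (45% of energy) for 4 weeks. They were then gavaged daily for 8 weeks with voglibose at 1 mg/kg (4 mice) or with the same volume of water (4 mice). Both groups shared strain, sex and diet, so the comparison asks what voglibose, an inhibitor of the alpha-glucosidases of the brush border, changes in obese mice on this diet. Neither lean mice nor mice on another diet are compared here. Each mouse gave about 4 cm of ileum and 1 Affymetrix array. Values are log2 signals per probe set, so a difference of 1 is a 2-fold difference.

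Most tryptophan that is not built into protein is broken down along this pathway. A dioxygenase opens the indole ring to give N-formylkynurenine, and a formamidase releases kynurenine. Kynurenine is then hydroxylated and cleaved on the way to quinolinate and NAD, or it is transaminated to kynurenic acid. In the intestine IDO1 is the main dioxygenase and is induced by interferon gamma, whereas TDO2 belongs to the liver. Kynurenine and kynurenic acid are ligands of the aryl hydrocarbon receptor AHR, and kynurenic acid also acts on the receptor GPR35.

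Upstream sequence was at hand in RefSeq (GRCm38.p6) for 7 of the 10 genes: Kyat1, Kyat3, Tdo2, Afmid, Kmo, Haao and Qprt. Ido1, Ido2 and Kynu were not searched for lack of it, so the motif counts do not cover interferon-induced Ido1. The 250 bases before each start were searched on both strands for the core of the AHR response element (GCGTG) and for motifs of interferon signalling, namely the interferon-stimulated response element and the gamma-activated site (TTCNNNGAA). The AHR core lay in 4 of the 7 windows (Kyat1, Kyat3, Tdo2 and Haao), and it lay in 28.2% of all 32851 windows of the same length. The gamma-activated site lay in 1 of 7, that of Qprt, against 7.02% of all windows. The interferon-stimulated response element lay in 0 of 7, against 2.98%. The sites of the paired aminotransferase genes, whose signals are set side by side further on, and the single interferon motif are shown with 10 bases on either side and the motif in capitals; CACGC is the AHR core read on the opposite strand.
Kyat1, chr2:30205954-30205978 (minus strand), 121 bases before the start: tctcggccgcCACGCaggcagccct
Kyat3, chr3:142700814-142700838 (plus strand), 224 bases before the start: gcttcgaatcCACGCagcggagatt
Kyat3, chr3:142700892-142700916 (plus strand), 146 bases before the start: cagccaaggcCACGCcctgtcccct
Qprt, chr7:127122030-127122058 (minus strand), 19 bases before the start: cagcctcagcTTCTGGGAAcattcgacct
These matches describe the letters of the reference sequence and are not evidence of binding. The windows of Kyat1, Afmid and Haao lie inside the RefSeq span of the gene.

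The 8 arrays were alike in scale, with medians from 5.89 to 5.94 and correlations from 0.982 to 0.994, and 0 of 22206 probe sets passed an adjusted p of 0.05 (limma, Benjamini-Hochberg). At an unadjusted p under 0.05, 1671 differed by over 1.2-fold, 7.52% of all. This count was 969 without voglibose mouse 1. The ileum pieces differed in region: the mean of 8 distal ileal markers, among them the bile acid binding protein gene Fabp6, ran from 8.33 to 13.04 in water mice and from 8.35 to 10.78 in voglibose mice. Water mouse 4 and voglibose mouse 2 were lowest, and Fabp6 itself was at 4.01 and 3.54 there, below the lower quartile of the arrays. Voglibose mouse 2 also had high pancreatic markers, with a mean of 10.30 over 6 exocrine genes, against 4.29 to 4.63 in the other 7 mice. B cell markers were high in water mouse 1 (7.53) and voglibose mouse 3 (7.34), against 5.07 to 5.93 elsewhere. In such whole tissue, fewer cells of a type and less RNA per cell cannot be told apart.

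Among the pathway genes, the largest differences between voglibose and water mice were those of Kyat1 (0.77) and Ido1 (-1.04), and the other 8 differed by at most 0.36 in either direction. Of the 10 genes, 5 were higher and 5 lower, with a median difference of -0.07 against -0.005 over all probe sets. At an unadjusted p under 0.05 stood 1 of the 10, Kyat1, against 7.52% of all probe sets, and since Kyat1 was chosen for that p, nothing is read from the count. The groups did not overlap in 1 of the 10, again Kyat1, against 4.35% of all probe sets (1.82% with voglibose mice higher). For the other 9 genes the adjusted p ran from 0.659 to 0.983 (limma, Benjamini-Hochberg over all probe sets).

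**Figure D1:**
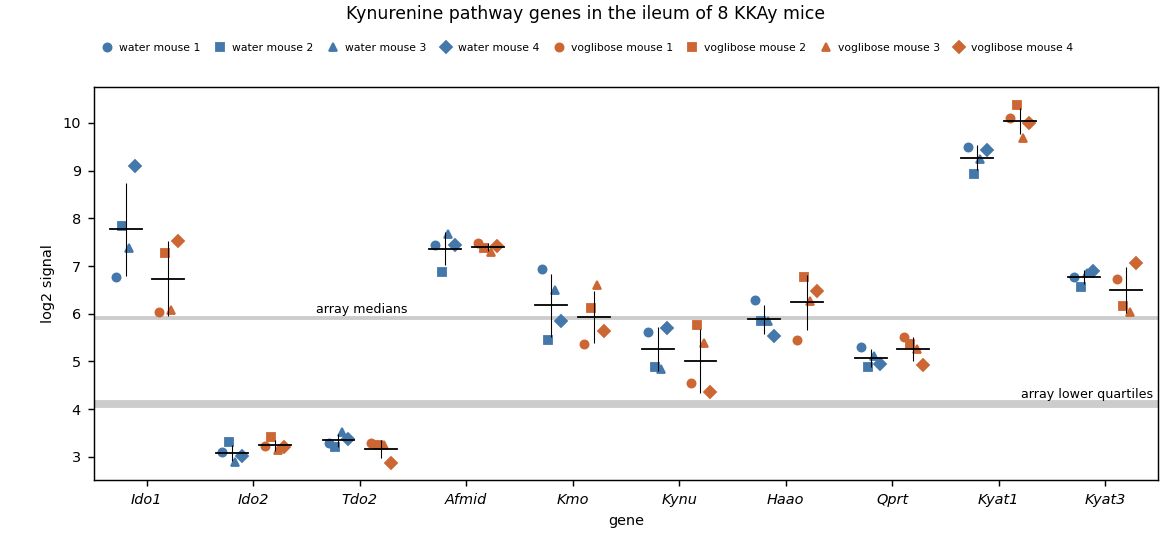
Log2 signal of the 10 pathway genes in each mouse (blue, water; orange, voglibose; the shape gives the mouse number), with the group mean as a bar and 1 SD as a line. Kyat1 is the gene in which all 4 voglibose mice lie above all 4 water mice, Ido1 spreads over 3.05 log2 units, and Ido2 and Tdo2 lie below the band of array lower quartiles; heights of different genes are not comparable, since probe sets differ in brightness.

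Kyat1 encodes kynurenine aminotransferase 1, also known as glutamine transaminase K or cysteine conjugate beta-lyase, which turns kynurenine into kynurenic acid and needs vitamin B6 as pyridoxal phosphate. Its log2 signal was 9.50, 8.92, 9.24 and 9.43 in water mice 1 to 4, and 10.11, 10.37, 9.69 and 9.99 in voglibose mice 1 to 4. Every voglibose mouse thus lay above every water mouse, and the gap between the highest water mouse (9.50) and the lowest voglibose mouse (9.69) was small beside the spread in each group. The means were 9.27 ± 0.26 and 10.04 ± 0.28 (SD, n = 4), a difference of 0.77 ± 0.19 (moderated SE), or 1.70-fold with a 95% interval from 1.28 to 2.26. Since Kyat1 was chosen for the p of this same contrast, that interval leaves out no change by the choice itself and is no test. For the same reason the size of the difference may be too large. Both means lay above the upper quartiles of the arrays (9.04 to 9.22), and water mouse 2 lay just below them.

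Kyat1 was also compared with the regional markers of the ileum piece. Water mouse 2, with the highest distal mean (13.04), had the lowest Kyat1 of all, and voglibose mouse 2, with a distal mean of 8.35, had the highest. Water mouse 4, with the lowest distal mean of all (8.33), had a Kyat1 of 9.43, below water mouse 1 and every voglibose mouse. Across the 8 mice Kyat1 and the distal list had Pearson's r = -0.65 (exact permutation p = 0.0781, adjusted p = 0.104 over 4 relations) and Spearman's rho = -0.57 (exact permutation p = 0.151, adjusted p = 0.216). Without water mouse 2 alone, r was -0.38 (exact permutation p = 0.392). Without water mice 2 and 4, the farthest from the median of the distal mean, r was -0.76 (exact permutation p = 0.0667), and after each group's mean was subtracted it was -0.86. The list of 9 proximal markers gave r = 0.64 (exact permutation p = 0.0775, adjusted p = 0.104) and rho = 0.52 (exact permutation p = 0.197, adjusted p = 0.216). That relation rests on water mouse 2 and voglibose mouse 2, since r was -0.26 without them (exact permutation p = 0.657), although it was 0.89 after the group means were subtracted. Neither relation had an adjusted p under 0.05 over all 8 mice. Kyat1 was chosen for its group difference, and every r here except those after subtraction of the group means includes it. The p-values of these relations are therefore a description only.

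The group difference of Kyat1 was also computed with the regional markers allowed for. It was 0.66 with the distal mean as a covariate and 0.67 with the proximal mean, and 0.71 without water mouse 4 and voglibose mouse 2. Without voglibose mouse 2 alone, the mouse with high pancreatic markers, it was also 0.66. These are further values of a difference that was chosen for its p, and they carry no test. The proximal list holds Slc2a5, itself higher in voglibose mice by 1.08 (unadjusted p = 0.0117, adjusted p = 0.652, limma). Its mean may therefore not measure region alone.

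**Figure D2:**
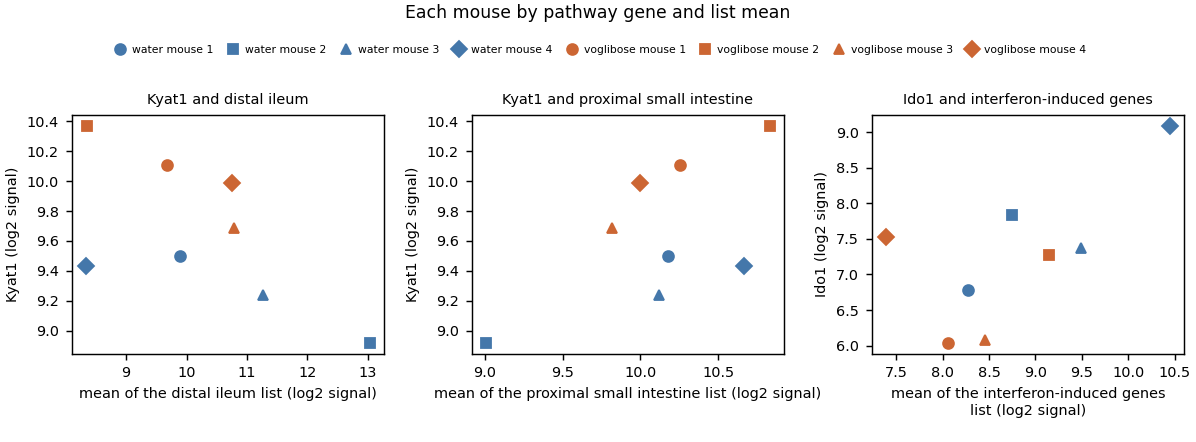
Kyat1 against the mean of the distal ileal list (left) and of the proximal small intestinal list (middle), and Ido1 against the mean of the interferon-induced list (right), all in log2 signal, 1 point per mouse (blue, water; orange, voglibose). The mouse with the highest distal mean in the water group (mouse 2) has the lowest Kyat1, and the mouse with the lowest distal mean in the voglibose group (mouse 2) the highest. Water mouse 4 has the lowest distal mean of all (8.33) with a Kyat1 of 9.43, below every voglibose mouse. Voglibose mouse 4 has the lowest interferon mean (7.39) without the lowest Ido1 (7.53).

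Among 9713 other named genes brighter than the median, the 5 whose signal over the 8 mice was most like that of Kyat1 were Ints7 (r = 0.98), a subunit of the Integrator complex, Wwox (r = 0.96), the fructose transporter gene Slc2a5 (r = 0.95), the interleukin-17 receptor adaptor gene Traf3ip2 (r = 0.95) and the receptor tyrosine kinase gene Epha1 (r = 0.95). They were picked as the highest of many correlations and are a description. Slc2a5 is itself a member of the proximal list used above.

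Kyat3, whose enzyme catalyses the same transamination, did not run with Kyat1. It was at 6.78, 6.55, 6.85 and 6.90 in the water mice and at 6.72, 6.16, 6.04 and 7.06 in the voglibose mice. The voglibose mice spread on both sides of the water mice, with mice 2 and 3 lower than any of them and mouse 4 higher. The difference was -0.28 ± 0.22 (SE; 95% interval -0.76 to 0.21; adjusted p = 0.814, limma), -0.16 without voglibose mouse 2, -0.12 without voglibose mouse 3 and -0.46 without voglibose mouse 4. Voglibose mouse 2 shows how far the pair can part, since it had the highest Kyat1 and the second-lowest Kyat3. The remaining kynurenine aminotransferase genes did not differ detectably either. Aadat, which encodes the mitochondrial kynurenine/alpha-aminoadipate aminotransferase, was dim, with 3.94 ± 0.46 in the water group and 3.66 ± 0.25 in the voglibose group (SD, n = 4). Got2, the mitochondrial aspartate aminotransferase gene, was bright at 12.44 ± 0.30 and 12.43 ± 0.40, with a 95% interval of the difference from -0.49 to 0.48.

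Ido1, which encodes the interferon-induced dioxygenase of the entry step, varied most of the 10 genes. Its signal was 6.78, 7.83, 7.37 and 9.09 in water mice 1 to 4 and 6.04, 7.28, 6.08 and 7.53 in voglibose mice 1 to 4. Water mouse 4 stood highest and voglibose mice 1 and 3 lowest, and the groups overlapped between 6.78 and 7.53. The means were 7.77 ± 0.98 and 6.73 ± 0.78 (SD, n = 4), a difference of -1.04 ± 0.48 (SE), which is 0.488-fold with a 95% interval from 0.236 to 1.01 (adjusted p = 0.659, limma). The unadjusted p was 0.0527 in this limma fit. It was 0.100 (SE 0.56) in limma with trend and robust variance, and 0.150 (SE 0.63) in the linear model without moderation of the variance. The narrow miss of 1 by the interval thus depends on how the variance was estimated. Without water mouse 4 the difference was -0.59, and its size thus depends on that mouse.

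Ido1 was set beside 30 measured interferon-induced genes of 35 listed. Of these, 2 were higher and 28 lower in voglibose mice, with a median difference of -0.97. At an unadjusted p under 0.05 were 12 lower and 0 higher, against 4.44% lower and 3.08% higher over all probe sets, and 0 passed an adjusted p of 0.05 (limma). Only 3 of the 30 had means below the median signal. Of the 11101 probe sets above it, 786 were lower and 285 higher at this unadjusted p. Lower interferon-induced genes were already known in these arrays when the list was written, so the count is no independent support. The list mean per mouse was 8.27, 8.75, 9.49 and 10.45 in the water mice and at 8.06, 9.15, 8.46 and 7.39 in the voglibose mice. Water mouse 4 was highest in both Ido1 and the list, whereas voglibose mouse 4 was lowest in the list with an Ido1 signal above that of the other voglibose mice. Most genes of the list were lowest of all 8 mice in voglibose mouse 4, among them Ifit1 (7.62), Usp18 (5.58), Irgm2 (6.64) and Igtp (7.05). The chemokine gene Cxcl10 (5.72) was the only gene of the list to stand highest of the voglibose mice there. Cxcl9 (8.83), also a chemokine gene, stood second-highest. Ido1 was not tested against single genes of the list.

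Across the 8 mice Ido1 and the interferon list had r = 0.65 (exact permutation p = 0.0775, adjusted p = 0.104) and rho = 0.50 (exact permutation p = 0.216, adjusted p = 0.216). Without water mouse 4 and voglibose mouse 4, which lay farthest from the median of the list, r was 0.70 (exact permutation p = 0.133). Leaving out voglibose mouse 4 alone gave r = 0.89 (exact permutation p = 0.00893, adjusted p = 0.0357), and leaving out water mouse 4 alone gave r = 0.23. The relation thus turns on those mice. The 5 bright genes most like Ido1 were Mthfs (r = 0.96), Tlr1 (r = 0.96), Mrps5 (r = 0.96), Uqcr11 (r = 0.95) and Hspa14 (r = 0.95). They encode a folate enzyme, a Toll-like receptor, a mitochondrial ribosomal protein, a subunit of respiratory complex III and a heat shock protein, and none of the 5 is on the interferon list.

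Kyat1 and Ido1 differed in opposite directions between the groups and had no clear relation across mice. Their r was -0.39 (exact permutation p = 0.349, adjusted p = 0.349) and their rho -0.57 (exact permutation p = 0.151, adjusted p = 0.216). Without water mouse 4 and voglibose mouse 1, r was -0.22 (exact permutation p = 0.688), and after the group means were subtracted it was 0.20. All but the last of these values include the group difference for which Kyat1 was chosen, so their p-values are a description only.

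The other dioxygenase genes, Ido2 and Tdo2, were close to background. Ido2, the neighbour of Ido1 in the genome, was at 3.10, 3.31, 2.90 and 3.02 in the water mice and at 3.23, 3.41, 3.14 and 3.21 in the voglibose mice. Tdo2 was at 3.29, 3.21, 3.52 and 3.37 in the water mice and at 3.29, 3.24, 3.25 and 2.88 in the voglibose mice. All 16 values lay below the lower quartiles of the arrays (4.05 to 4.18), so the differences of 0.17 ± 0.14 and -0.18 ± 0.15 (SE) carry little information on either transcript. Leaving out water mouse 3 gave 0.10 for Ido2, and leaving out water mouse 4 together with voglibose mouse 2 gave 0.09. The Tdo2 difference became -0.09 once voglibose mouse 4 was dropped. Of 7 liver markers, 6 had means below the array medians, among them the albumin gene Alb at 3.78 to 4.48, while Serpina1a was at 6.89 to 10.13.

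Afmid, the formamidase gene that follows the dioxygenases, hardly differed. It was at 7.45, 6.88, 7.68 and 7.45 in the water mice and at 7.49, 7.38, 7.30 and 7.43 in the voglibose mice. Apart from water mouse 2 at the low end and water mouse 3 at the high end, the mice lay within 7.30 to 7.49. The difference was 0.04 ± 0.18 (SE; 95% interval -0.35 to 0.42), and it was -0.13 without water mouse 2.

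Kmo encodes the mitochondrial kynurenine 3-monooxygenase, and Kynu the kynureninase that cleaves kynurenine and 3-hydroxykynurenine. Kmo was at 6.93, 5.45, 6.50 and 5.84 in the water mice and at 5.36, 6.12, 6.61 and 5.63 in the voglibose mice. Both groups spread over more than 1 log2 unit, and the difference of -0.25 ± 0.34 (SE) ran, as each mouse was left out in turn, from 0 (water mouse 1) to -0.49 (water mouse 2). Kynu was at 5.62, 4.89, 4.85 and 5.70 in the water mice and at 4.55, 5.77, 5.39 and 4.36 in the voglibose mice. It fell into a high and a low pair in each group, and the difference of -0.25 ± 0.32 (SE) ran in the same way from -0.03 (voglibose mouse 4) to -0.50 (voglibose mouse 2). The 95% intervals were -0.996 to 0.496 for Kmo and -0.96 to 0.46 for Kynu, which reach from 0.502-fold to 1.41-fold and from 0.515-fold to 1.38-fold.

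Haao and Qprt, which make quinolinate and use it, had slightly higher means in voglibose mice. Haao encodes the dioxygenase whose product closes spontaneously to quinolinate, and it was at 6.28, 5.85, 5.85 and 5.54 in the water mice and at 5.44, 6.78, 6.27 and 6.47 in the voglibose mice. Voglibose mouse 1 was the lowest of all 8 and voglibose mouse 2 the highest. The difference was 0.36 ± 0.27 (SE; adjusted p = 0.795, limma), 0.63 without voglibose mouse 1 and 0.18 without voglibose mouse 2, the mouse with high pancreatic markers. Without voglibose mouse 2 and water mouse 4 it was 0.07. Qprt encodes the phosphoribosyltransferase that turns quinolinate into nicotinic acid mononucleotide. It was at 5.31, 4.89, 5.11 and 4.95 in the water mice and at 5.52, 5.36, 5.26 and 4.93 in the voglibose mice. The groups overlapped between 4.93 and 5.31, below the array medians, and the difference was 0.20 ± 0.17 (SE; adjusted p = 0.817, limma), 0.12 without voglibose mouse 1, 0.32 without voglibose mouse 4 and 0.13 without water mouse 4 and voglibose mouse 2.

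**Figure D3:**
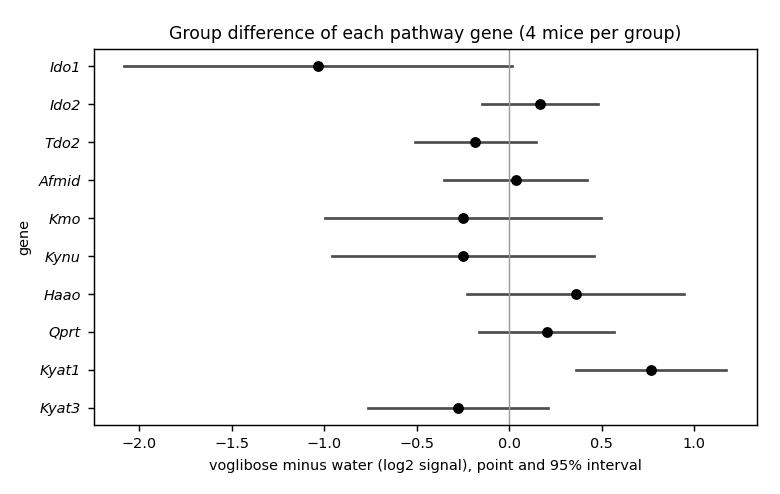
Difference of each pathway gene between 4 voglibose and 4 water mice (log2 signal), with the moderated 95% interval as a line. The interval of Kyat1 runs from 0.36 to 1.18, that of Ido1 from -2.08 to 0.01, and those of the other 8 genes include 0. Kyat1 was chosen for its difference, so its interval leaves out 0 by that choice and is no test.

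Around the pathway, 43 of 47 listed genes of tryptophan uptake and use, NAD synthesis, AHR signalling and interferon gamma signalling were measured. Of these, 17 were higher and 26 lower in voglibose mice, with a median difference of -0.04. At an unadjusted p under 0.05 were 2 higher and 1 lower, 6.98% of the list against 7.52% of all probe sets, and 0 passed an adjusted p of 0.05 (limma). The share of the list was close to that of the whole array. Of the 43 genes, 12 had means below the median signal, and among probe sets above the median the share was 9.65%. Of the 43, 1 gene had groups that did not overlap, Irf8, against 4.35% of all probe sets, or 1.82% with voglibose mice higher.

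The 3 genes at an unadjusted p under 0.05 came from different branches. Gpr35, the kynurenic acid receptor gene, was at 8.73, 8.68, 8.90 and 8.94 in the water mice and at 9.39, 9.17, 8.87 and 9.45 in the voglibose mice. All voglibose mice but mouse 3 lay above the water mice, and the difference was 0.41 ± 0.16 (SE; adjusted p = 0.658, limma). Nmrk1, the nicotinamide riboside kinase gene of NAD salvage, was at 7.83, 7.87, 7.69 and 7.69 in the water mice and at 7.82, 8.61, 8.01 and 8.37 in the voglibose mice. Its difference of 0.43 ± 0.18 (adjusted p = 0.658, limma) was 0.27 without water mouse 4 and voglibose mouse 2. Maoa, the monoamine oxidase gene that breaks down serotonin, was at 15.72, 15.39, 15.78 and 15.50 in the water mice and at 14.79, 15.22, 15.01 and 15.41 in the voglibose mice. Here voglibose mouse 4 alone overlapped the water mice, and the difference was -0.49 ± 0.17 (adjusted p = 0.652, limma).

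Apart from these 3, no gene of these lists reached an unadjusted p of 0.05. Of 8 genes of NAD synthesis, 4 were higher and 4 lower, and Nampt, the rate-limiting enzyme gene of salvage from nicotinamide, differed by -0.47 ± 0.28 (SE) and by -0.16 without water mouse 4. Of 5 measured genes of tryptophan uptake, 3 were higher and 2 lower. Of 5 serotonin genes, 1 was higher and 4 lower, among them the tryptophan hydroxylase gene Tph1 at -0.37 ± 0.26 (-0.16 without water mouse 4, -0.56 without water mouse 2). The tryptophanyl-tRNA synthetase gene Wars, another interferon gamma target, differed by -0.24 ± 0.16 (-0.15 without water mouse 4).

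None of the genes of kynurenine receptors and AHR targets passed an adjusted p of 0.05 (limma). Ahr itself differed by -0.24 ± 0.19 (SE; -0.08 without voglibose mouse 4), and of the 7 genes of this list 2 were higher and 5 lower. The AHR target gene Cyp1a1, the classical readout of receptor activity, was at 2.75 to 3.37 in water and 2.83 to 3.19 in voglibose mice, below the lower quartiles of the arrays. Of 7 measured genes of interferon gamma signalling, 3 were higher and 4 lower. Ifng was dim and differed by 0.34 ± 0.20 (0.23 with water mouse 3 left out, 0.22 with voglibose mouse 4 left out). Irf1, the transcription factor gene between interferon gamma and Ido1, differed by -0.21 ± 0.35, which became 0.14 with water mouse 4 left out and -0.45 with voglibose mouse 2 left out. The kinase gene Jak1 differed by 0.32 ± 0.15, and Irf8 by 0.22 ± 0.14, with water mice from 7.53 to 7.88 and voglibose mice from 7.89 to 7.97.

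**Figure D4:**
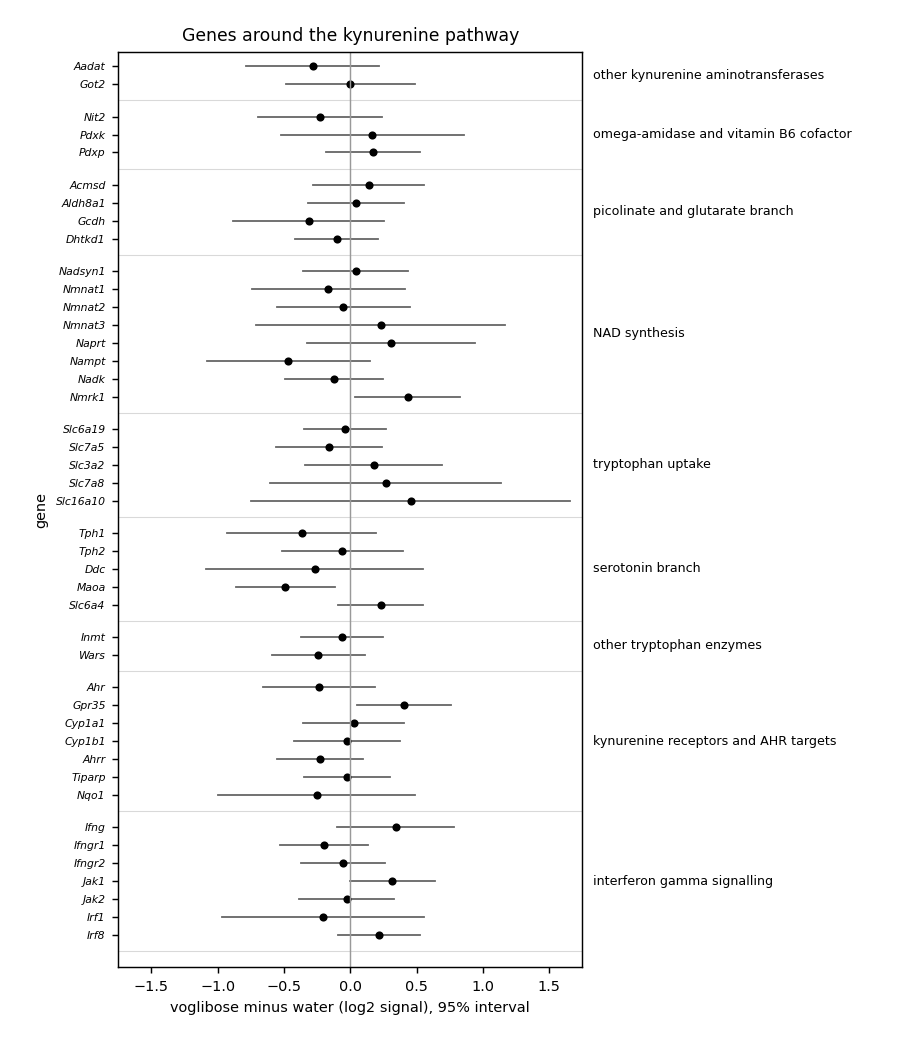
Difference between voglibose and water mice (log2 signal, point and 95% interval) for 43 genes around the kynurenine pathway, grouped by the list named at the right. The intervals of Nmrk1, Maoa and Gpr35 leave out 0, and the points lie on both sides of 0, with 17 higher and 26 lower.

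Immune cell markers were compared by their list means. The mean over 14 macrophage and dendritic cell markers ran from 7.54 to 7.69 in water and from 7.38 to 7.78 in voglibose mice, with 5 markers higher and 9 lower. Within that list the groups did not overlap for Cd14, the lipopolysaccharide co-receptor gene, named after its values were seen, at 6.88 to 7.06 in water and 5.69 to 6.48 in voglibose mice (adjusted p = 0.652, limma). It was the only 1 of the 14 markers without overlap, against 4.35% of all probe sets, so nothing is read from it. The mean over 4 neutrophil markers, all below the array medians, did not overlap between the groups, with 5.06 to 5.31 in water and 4.83 to 5.04 in voglibose mice. Of these markers, 1 was higher and 3 lower, and 2 of them, S100a8 and S100a9, were lower at an unadjusted p under 0.05, against 4.44% of all probe sets. Groups did not overlap in 1 of the 4, against 4.35% of all probe sets. With 0 of 4 passing an adjusted p of 0.05 (limma), these dim markers are a description only. That over 10 T cell and intraepithelial lymphocyte markers ran from 6.08 to 8.17 and from 6.86 to 8.02, with 8 higher and 2 lower. Water mouse 4, with the highest Ido1, had the highest T cell mean, and water mouse 2, with the second-highest Ido1, had the lowest. The part of these cells in the Ido1 values was not tested. Enterocyte markers were bright in every mouse, with means from 17.40 to 17.95.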

How the data were processed

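The authors deposited 1 table of log2 signals per probe set for 8 Affymetrix arrays (250 ng of total RNA each). Per the submitters' processing notes, RMA and the Transcriptome Analysis Console were used. The log2 scale was read from the deposited values (2.09 to 19.55), while the RMA settings, scan dates and genome build were not given in the sources used here. Normalization across arrays hides a change in total RNA, and differences of dim probe sets come out too small.

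Groups (source labels) were compared over all 22206 probe sets with limma 3.58.1 in R 4.3.3 (lmFit, eBayes), 2-sided, with Benjamini-Hochberg adjustment. Labels give 4 mice per group, so p-values rest on the spread between these mice, moderated by eBayes toward the spread over all probe sets. The number of arrays limits the precision (median SE 0.18). Figures used matplotlib 3.10.9 in Python 3.11.15. On simulated data for voglibose against water over 22206 probe sets, 62.0% of 2-fold and 13.4% of 1.5-fold changes were recovered at an adjusted p of 0.05. The changes were placed only in probe sets above the median signal, and 4 of the 10 members lie below it. These shares are means over many probe sets and do not hold for a gene as variable as Ido1 (SE 0.48). Members and lists were chosen with earlier results of these data known. Genes named are the 10 members, genes of the tryptophan, NAD, AHR, vitamin B6 and interferon gamma lists, those at p under 0.05 first, brightest or defining cell markers, and the 5 genes most like Kyat1 and Ido1 by Pearson's r. Single genes of the interferon-induced list were named after their values were seen. Listed genes without a named probe set were not analysed here. For Kyat1, Afmid and Haao the promoter window lies inside the RefSeq span of the gene.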

Additional observations from a re-analysis of the deposited data

Results flagged for a closer look

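Of 26 groups of 4 mice examined (10 genes and 3 list means in each group), 1 held a mouse far from its group: Tdo2 in voglibose mouse 4, at 2.88 against 3.24 to 3.29 in the other 3, with a gap of 0.878 of the group's range. Chance alone marks about 1 group in 20, and all of these signals lay near background.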

How the results depend on the processing

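Across 18 alternatives the difference of Kyat1 ran from 0.65 (without water mouse 2) to 0.88 (without voglibose mouse 3), and that of Ido1 from -1.36 (without water mouse 1) to -0.59 (without water mouse 4). No probe set passed an adjusted p of 0.05 in any of them. The count at an unadjusted p under 0.05 and over 1.2-fold, 1671, ran from 969 to 1906 with 1 mouse left out and was 988 when only probe sets above the median signal were tested, as fewer were then tested. A further quantile normalization moved the share of lower probe sets among those at p under 0.05 from 59.1% to 50.5%.

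Afmid ran from -0.13 to 0.14 with 1 mouse left out, and was -0.024 with the distal and -0.034 with the proximal list as a covariate. Got2 ran from -0.20 to 0.14 with 1 mouse left out, was 0.066 after a further quantile normalization and 0.0007 with array weights. Irf1 ran from -0.45 to 0.14 with 1 mouse left out. The cause was not tested. The number of pathway genes higher in voglibose mice ran from 4 to 6 of 10.

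With 1 mouse left out, r of Ido1 with the interferon list ran from 0.23 to 0.89. That of Kyat1 ran from -0.88 to -0.38 with the distal list and from 0.31 to 0.80 with the proximal list. Both relations of Kyat1 had an adjusted p under 0.05 without water mouse 4 (0.0349 and 0.0452, exact permutation tests). Since these r of Kyat1 include the group difference for which it was chosen, their p-values are a description only.

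Over all probe sets, the deviations of mice sharing a number had correlations from -0.32 to 0.02, so no pairing by number showed across the array as a whole. Such a correlation cannot exclude pairing for single genes. With the replicate number as a block the count was 1529 and Ido1 had an SE of 0.20, against 0.48 without it, an unadjusted p of 0.00128 and an adjusted p of 0.724 (limma). The mean of several probe sets per gene was not run, since each member had 1. The omission of water mouse 4 and voglibose mouse 2 together and both covariates were added after the data were seen.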
